A study of Rattus norvegicus with 6 samples.

Results

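The 10 genes described here make, carry or receive chondroitin sulfate, the sugar chain that builds up in the scar of an injured spinal cord. They are the core proteins Acan, Bcan, Ncan, Vcan, Cspg5 and Ptprz1, the receptor Ptprs, and the enzymes Xylt1, Chsy1 and Chst11, chosen by gene symbol. All 10 were found, each in 1 row of the 33455 genes of the deposited count table, and all 10 passed the low-count filter that left 17066 genes to test. In the coordinates of that table, whose build is unnamed and which shares 0 gene identifiers with the RefSeq table of the Norway rat, Acan (121135373 to 121168301), Xylt1 (83978598 to 84264793) and Chsy1 (134185824 to 134246947) lie on the minus strand of 1 sequence, and Bcan (65557849 to 65570665) and Vcan (206529809 to 206627680) on the plus strand of another. The tissue was a piece of about 5 mm3 from the lesion centre of wild type rats with a contusion at thoracic segment 9. Both groups received ultrasound over the implant at 100 Hz and 1 W/cm2 for 10 min a day during 4 weeks, with a gel in Gel+US (3 libraries) and with a piezoelectric gel in Piezo Gel+US (3 libraries). A piezoelectric material turns mechanical strain into electrical charge, and the comparison asks which transcripts differed when the gel could do so. Strain, sex and age are not given in the sources used here, and no uninjured or unstimulated group was analysed here.

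A chondroitin sulfate proteoglycan is a core protein with long sulfated sugar chains attached to its serines. Aggrecan (Acan), brevican (Bcan), neurocan (Ncan) and versican (Vcan) bind hyaluronan, and together with link proteins and tenascin-R they form the matrix between brain and cord cells, including the nets around some neurons. After injury astrocytes, oligodendrocyte precursors and other cells deposit these molecules in and around the lesion, where they are known to hold back regrowing axons, in part through the receptor phosphatase Ptprs on the axon.

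Total counts ran from 17212653 to 21436820 per library, so that each of the 10 genes rested on at least 103 counts in every library. Piezo Gel+US replicate 2 stood apart from the other libraries in its Schwann cell markers, which belong to peripheral nerve. Markers of the cord were present in all libraries: the 7 matched astrocyte markers summed to 3270 to 5375 CPM (a count divided by the scaled library size, times 1e6) in Gel+US and 1497 to 4776 in Piezo Gel+US, and the 8 neuron markers to 2449 to 15618 and 1754 to 7952. The 4 Schwann cell markers used (Prx, Cldn19, Drp2 and Ncmap) summed to 800 to 1381 CPM in Gel+US and to 1305, 8063 and 2573 CPM in Piezo Gel+US replicates 1 to 3. None of the markers in these 3 lists was at 0 in any library.

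No member of the set was called between the groups. By the edgeR quasi-likelihood test 0 of 10 had an adjusted p below 0.05, beside 0 of all 17066 genes (0% called), and the smallest adjusted p among the 10 was 0.994. Without adjustment, 0 of the 10 had p below 0.05 by edgeR and 0 by DESeq2, beside 359 genes (2.10%) of all genes by edgeR. With the replicate number as a block, 3 of the 10 had p below 0.05 by edgeR (Acan, Ptprz1 and Chst11, adjusted p = 0.855 for each), beside 5.78% of all genes. These 3 were lower in Piezo Gel+US in 3 of 3 pairs formed by replicate number, where the other 7 genes were lower in 1 or 2. The block fit rests on the same differences, so that this count is no separate support. The share of all genes lower in 3 of 3 pairs was not counted. The log2 fold change was below 0 in 8 of the 10, where 52.9% of all genes tested had one below 0, and the median was -0.20 for the 10 and -0.021 for all genes. The 2 groups overlapped for all 10 genes, while 6.81% of all genes tested had groups that did not overlap. Without Piezo Gel+US replicate 2 the number below 0 was 6 of 10 and the median -0.069, beside 55.7% and -0.035 for all genes of that fit.

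**Figure D1:**
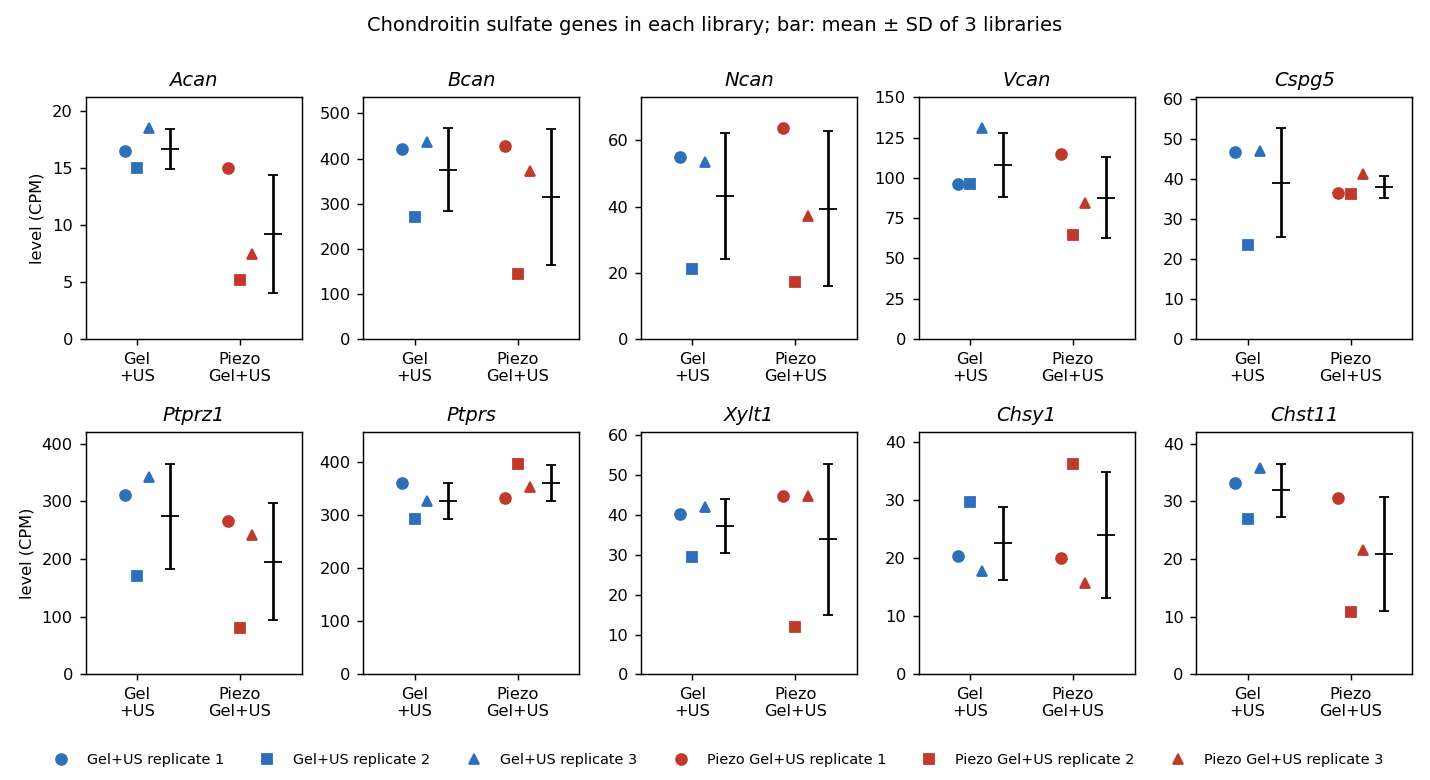
Level in CPM (vertical axis, from 0) of each of the 10 genes in the 6 libraries, Gel+US in blue and Piezo Gel+US in red, with the symbol shape giving the replicate number and the black bar the mean ± SD of 3 libraries. For 7 genes the red square, Piezo Gel+US replicate 2, is the lowest of the 6 points, and for Ptprs and Chsy1 it is the highest.

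Among the lecticans, the 4 hyaluronan-binding core proteins, brevican had the highest level per kilobase of gene and aggrecan the lowest. Bcan, the small lectican of adult glia, measured 420, 270 and 436 CPM in Gel+US replicates 1 to 3 and 429, 144 and 373 CPM in Piezo Gel+US replicates 1 to 3. The 2 libraries numbered 2 were the lowest of their groups, and the other 4 lay between 373 and 436. Group means were 376 ± 91.7 and 315 ± 151 CPM (SD, n = 3 each), with a log2 fold change of -0.25 (95% interval -1.28 to 0.77). Without Piezo Gel+US replicate 2 this log2 fold change was 0.087.

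Neurocan showed the same 2 low libraries, and was lower than brevican in centred log2 CPM in Gel+US replicate 2 (-0.79 against -0.26). In Piezo Gel+US replicate 2 they were alike, at 37.1% and 37.2% of the mean of the other 5 libraries. Ncan, a lectican of developing neurons that reactive astrocytes make again, measured 55.1, 21.3 and 53.3 CPM in Gel+US and 63.7, 17.1 and 37.3 CPM in Piezo Gel+US. The highest and the lowest value both came from Piezo Gel+US, a spread of 3.72-fold within a single group, and the log2 fold change was -0.14 (95% interval -1.43 to 1.16). It was 0.22 when Piezo Gel+US replicate 2 was left out, 0.076 when Gel+US replicate 1 was and 0.044 when Gel+US replicate 3 was, so its sign differed with the library left out.

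Aggrecan had the lowest p of the 10 genes. Acan, the large core protein of perineuronal nets and cartilage, measured 16.5, 14.995 and 18.5 CPM in Gel+US and 15.05, 5.18 and 7.45 CPM in Piezo Gel+US, from 103 to 369 counts per library. The Gel+US libraries lay close together, and 2 of the 3 Piezo Gel+US libraries lay well under them, whereas Piezo Gel+US replicate 1 (282 counts) fell within the Gel+US range. The log2 fold change was -0.85 (95% interval -1.81 to 0.10, edgeR adjusted p = 0.994). It remained below 0 in each fit that left out 1 library, from -1.42 without Piezo Gel+US replicate 1 to -0.58 without Piezo Gel+US replicate 2.

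Versican varied less than the other lecticans. Vcan, a lectican of oligodendrocyte precursors and fibrous tissue, measured 96.5, 96.5 and 131 CPM in Gel+US and 115, 64.3 and 84.6 CPM in Piezo Gel+US, a 2.04-fold range over 6 libraries. The 2 lowest values came from Piezo Gel+US, and replicate 1 of that group lay within the Gel+US range. Its log2 fold change was -0.30 (95% interval -0.91 to 0.31), and -0.13 without Piezo Gel+US replicate 2.

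The membrane-bound core proteins behaved unlike each other. Ptprz1 is a receptor phosphatase of astrocytes and oligodendrocyte precursors that carries chondroitin sulfate itself, and a secreted form of it is known as phosphacan. It measured 311, 170 and 342 CPM in Gel+US and 266, 80.0 and 241 CPM in Piezo Gel+US, a 4.27-fold range that was the widest of the 10 genes. Its log2 fold change was -0.49 (95% interval -1.65 to 0.67) and -0.12 without Piezo Gel+US replicate 2. Cspg5, or neuroglycan C, a transmembrane proteoglycan of neurons and glia, measured 46.8, 23.4 and 47.1 CPM in Gel+US and 36.5, 36.3 and 41.2 CPM in Piezo Gel+US. It was low in Gel+US replicate 2 and not in Piezo Gel+US replicate 2, and its means of 39.1 ± 13.6 and 38.0 ± 2.79 CPM gave a log2 fold change of -0.044 (95% interval -0.73 to 0.64). That value was 0.11 when either Gel+US replicate 1 or replicate 3 was left out, and -0.32 when replicate 2 was.

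Ptprs, the phosphatase on axons that binds the sulfated chains, was the steadiest of the set. It measured 362, 292 and 328 CPM in Gel+US and 332, 398 and 353 CPM in Piezo Gel+US, so that the highest library was only 1.36-fold above the lowest. Means were 327 ± 34.7 and 361 ± 33.3 CPM, with a log2 fold change of 0.14 (95% interval -0.30 to 0.59). It was 0.057 when Gel+US replicate 2 was left out, 0.061 when Piezo Gel+US replicate 2 was and 0.22 when Gel+US replicate 1 was. The interval of the 6 libraries leaves out a fall or a rise by 1 log2 unit in the mean of this receptor. Piezo Gel+US replicate 2 was its highest library, opposite to Bcan and Ptprz1.

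The enzymes split in the same way. Xylt1 starts a chain by putting xylose on a serine of the core protein, and it measured 40.2, 29.4 and 42.1 CPM in Gel+US and 44.9, 12.02 and 44.9 CPM in Piezo Gel+US. Piezo Gel+US replicate 2 was at 29.8% of the mean of the other 5 libraries, while the remaining Piezo Gel+US libraries were the 2 highest of all. The log2 fold change was -0.13 (95% interval -1.29 to 1.02) and turned to 0.26 without that library. Chsy1, which lengthens the chain by adding its repeating sugars, ran the other way.

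Chsy1 measured 20.3, 29.6 and 17.7 CPM in Gel+US and 20.0, 36.2 and 15.8 CPM in Piezo Gel+US. Both libraries numbered 2 were the highest, Piezo Gel+US replicate 2 at 175% of the mean of the other 5. The log2 fold change of 0.090 (95% interval -0.78 to 0.96) became -0.34 when Piezo Gel+US replicate 2 was left out and -0.072 when Gel+US replicate 3 was. Chst11, a sulfotransferase that puts sulfate on the N-acetylgalactosamine of the finished chain, had the second lowest p of the 10.

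Chst11 measured 33.2, 26.9 and 35.8 CPM in Gel+US and 30.5, 10.8 and 21.6 CPM in Piezo Gel+US. As for Acan, replicates 2 and 3 of Piezo Gel+US lay under every Gel+US library and replicate 1 lay within their range. The log2 fold change was -0.61 (95% interval -1.50 to 0.28, edgeR adjusted p = 0.994), and it ran from -0.997 without Piezo Gel+US replicate 1 to -0.30 without Piezo Gel+US replicate 2.

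**Figure D2:**
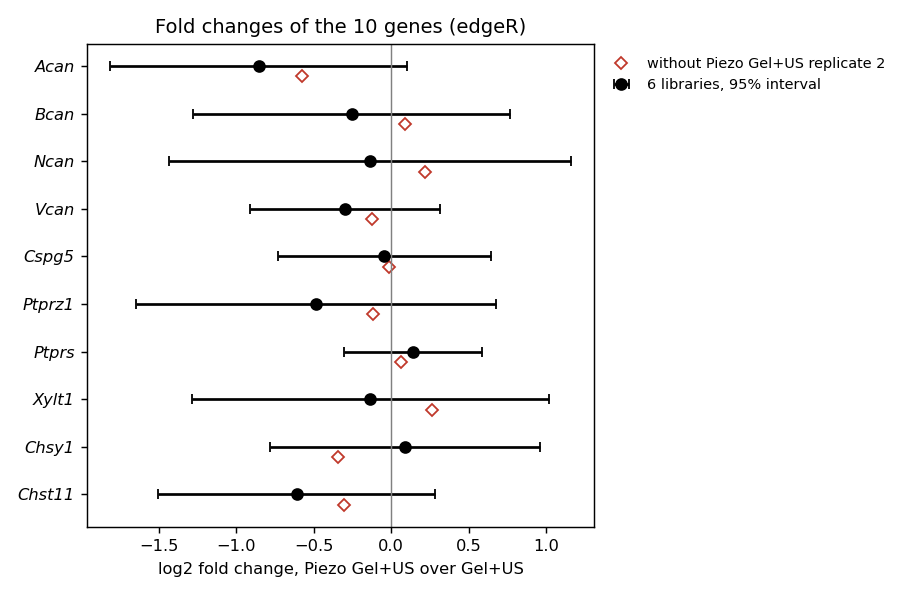
Log2 fold change of Piezo Gel+US over Gel+US (horizontal axis) for each of the 10 genes, black points with 95% intervals from the edgeR fit of 6 libraries and open red diamonds from the fit without Piezo Gel+US replicate 2. All 10 intervals include 0, and leaving the library out moves Bcan, Ncan and Xylt1 above 0 and Chsy1 below it.

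Per kilobase of the gene length in that table, which may come from the reference of another rat species, the level of the 10 genes spanned from 1.76 ± 0.73 CPM per kb for Acan to 84.4 ± 28.5 for Bcan (mean and SD of 6 libraries). Ptprs followed at 49.9 ± 5.17, Ptprz1 at 29.7 ± 12.2 and Cspg5 at 18.6 ± 4.24, the latter 2 closer than the SD of Ptprz1. Ncan (9.82 ± 4.56), Chst11 (8.15 ± 2.82), Vcan (7.79 ± 1.84), Xylt1 (6.49 ± 2.35) and Chsy1 (5.99 ± 2.04) lay within 1 SD of their neighbours in this order, so that their order is not resolved. Lengths are those of the deposited gene models and not of the isoforms present, which matters most for Vcan and Ptprz1, both known for long and short forms.

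Piezo Gel+US replicate 2 was the lowest library for 7 of the 10 genes (Acan, Bcan, Ncan, Vcan, Ptprz1, Xylt1 and Chst11), as it was for 28.4% of all genes tested, and it was the highest for 2 (Ptprs and Chsy1), as for 29.2% of all genes tested. These 7 were at 29.8% (Xylt1) to 61.5% (Vcan) of the mean of the other 5 libraries. Astrocyte markers were low in the same library: their mean log2 level was -1.31 there against the mean of 6 libraries, with 6 of the 7 markers at their lowest, and the Schwann cell markers stood at 2.20 with 4 of 4 at their highest. The mean over markers of neurons (-1.24), microglia and macrophages (-1.08), ependymal cells (-1.03), oligodendrocytes (-0.95) and oligodendrocyte precursors (-0.64) was also low there, and that of fibroblasts high (1.42). Markers within a list did not all go the same way. Of 6 precursor markers, 4 were at their lowest there and 2, Pdgfra and Cspg4, at their highest. Of 8 oligodendrocyte markers, 6 were at their lowest, while Cnp was at 117% and Mbp at 84.9% of the mean of the other 5 libraries. Of 6 ependymal markers, 4 were at their lowest and 1, Dnah11, at its highest. Of 8 fibroblast markers, 4 were at their highest, while Fn1 was at 52.6% of the mean of the other 5 libraries. Fewer cells of a type and less RNA per cell cannot be told apart in bulk tissue.

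Set against the astrocyte markers of the same library, the only cell type used for this, Bcan, Ptprz1 and Xylt1 changed little. The centred log2 CPM of Bcan minus the mean of the astrocyte markers stayed between -0.11 and 0.14 over the 6 libraries, that of Ptprz1 between -0.18 and 0.15 and that of Xylt1 between -0.17 and 0.28. The same difference ran from -0.60 to 1.53 for Ptprs and from -0.86 to 2.01 for Chsy1, both at their top in Piezo Gel+US replicate 2. For Acan it was -0.84 in Piezo Gel+US replicate 3 and between 0.040 and 0.49 in the other 5, with 0.14 in Piezo Gel+US replicate 2. Markers of other cell types were not set against the genes in this way, so that a small difference is not shown to be particular to astrocytes. Chst11 stood at -0.38 in Piezo Gel+US replicate 3 and 0.12 in replicate 2. The part of cell makeup in the group differences was not tested.

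**Figure D3:**
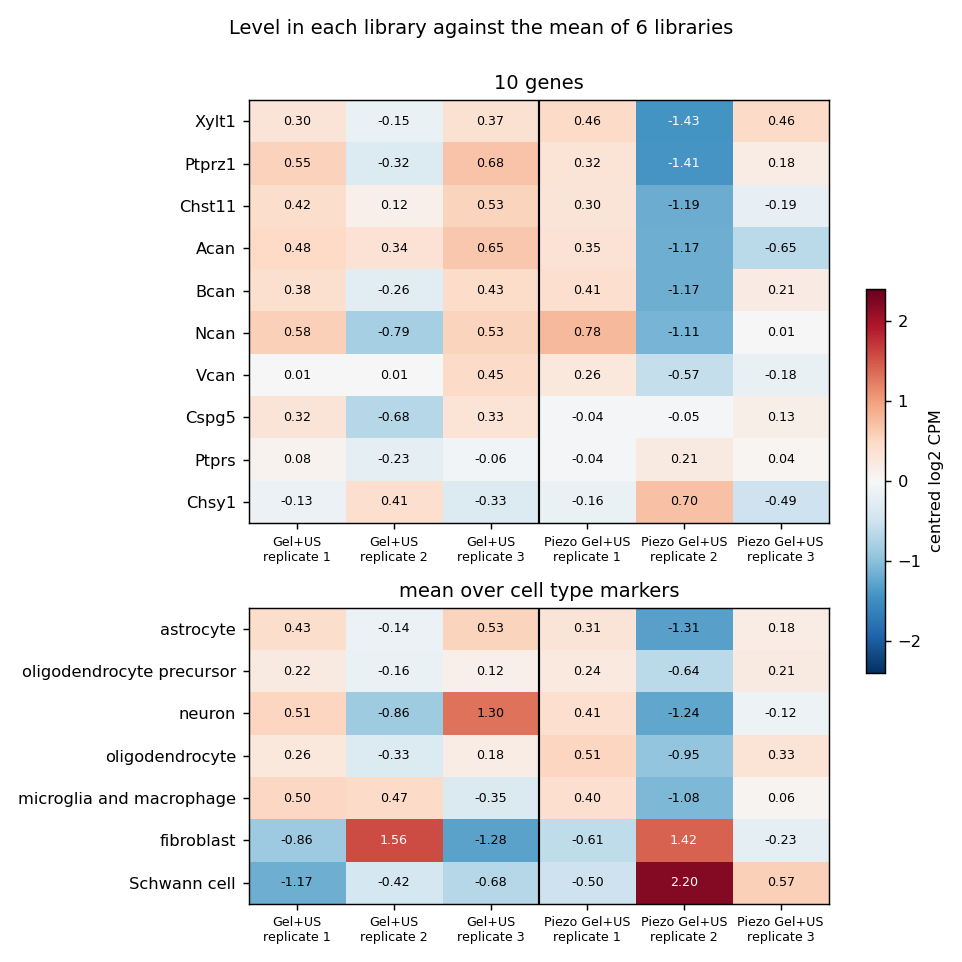
Centred log2 CPM (colour, numbers in the cells) of the 10 genes and the mean over markers of 7 cell types in each of the 6 libraries, with Gel+US left and Piezo Gel+US right of the black line. In the column of Piezo Gel+US replicate 2, 6 of the genes lie between -1.43 and -1.11, the astrocyte markers at -1.31 and the neuron markers at -1.24, while Schwann cell markers are at 2.20.

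The closest pair of genes within the set was Bcan and Xylt1, a core protein and the enzyme that starts its chains, whose centred log2 profiles differed by a root mean square of 0.16 over the 6 libraries, like Bcan and Ptprz1 (0.16). The most distant pair was Ptprz1 and Chsy1 (1.09). For Bcan, Xylt1 and Ncan, the last being the only one with a TATAAA match among the 8 genes that had a promoter in the RefSeq table of GRCr8, the 150 bases before the annotated start are shown 5′ to 3′ on the strand of the gene, with motif matches in capitals.
Bcan, chr2:175765315-175765464, minus strand: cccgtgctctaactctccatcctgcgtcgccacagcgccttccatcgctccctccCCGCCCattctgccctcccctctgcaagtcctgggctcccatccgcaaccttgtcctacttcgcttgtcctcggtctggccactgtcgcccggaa
Xylt1, chr1:181078072-181078221, plus strand: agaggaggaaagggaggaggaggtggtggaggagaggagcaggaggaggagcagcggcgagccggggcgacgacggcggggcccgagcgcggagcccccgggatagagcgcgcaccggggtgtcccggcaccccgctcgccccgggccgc
Ncan, chr16:19335757-19335906, plus strand: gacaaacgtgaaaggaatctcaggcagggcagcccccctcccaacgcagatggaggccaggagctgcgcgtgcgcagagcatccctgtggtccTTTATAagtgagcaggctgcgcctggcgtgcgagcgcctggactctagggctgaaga
Searched on both strands were GGGCGG (the GC box, present in 26.0% of 33469 windows of this length), CCAAT (23.5%), TATAAA (8.0%) and ACAAT, a core bound by SOX factors (19.6%). Bcan held 1 GC box match and Ncan 1 TATAAA match, both on the strand opposite to the gene, and Xylt1 held none of the 4. A match is of letters only, and its direction and distance from the start were not weighed. CCAAT and ACAAT were found in none of the 8 windows. Xylt1 was richer in G and C, at 77.3%, than Bcan (64.7%) and Ncan (62.7%), where the median of all windows was 52.7%. Bcan and Xylt1 shared no searched motif, and Ptprz1 had no window to compare.

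Outside the set, the gene of most similar profile among 11155 genes of at least 5 CPM was Pfkp for Ptprz1, followed by Scg3, at root mean square differences of 0.027 and 0.030 log2 units over 6 libraries. Bcan was closest to Mast4 (0.061), Chst11 to Trps1 (0.061) and Ednrb (0.068), and Xylt1 to S1pr5 (0.049) and Grik4 (0.059). Chsy1 was closest to Plk2 (0.069) and Sdk1 (0.085). Acan and Ncan had no neighbour as near: their best were Raph1 at 0.19 and Pak5 at 0.16.

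Ratios between 2 genes of the same library do not depend on how libraries are scaled, and 4 were compared. The ratio of Chst11 to Chst3 sets against each other 2 sulfotransferases that act on different positions of the same sugar of the chain. Its log2 value was 0.93, 0.69 and 1.12 in Gel+US and 0.40, -1.69 and -0.20 in Piezo Gel+US. All Piezo Gel+US libraries lay below all Gel+US libraries, with a difference of the means of -1.41 (exact two-sided permutation p = 0.1, n = 3 each, adjusted p = 0.2 over the 4 ratios), and 0.1 is the smallest p that 3 against 3 can give. Without Piezo Gel+US replicate 2 the difference was -0.82. Chst3 separated the groups by itself (log2 fold change 0.71), and the 4 ratios were chosen with earlier results of these data known. Their p-values are therefore a description and no independent test.

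For Vcan over Acan the log2 ratio was 2.54, 2.68 and 2.82 in Gel+US and 2.93, 3.63 and 3.50 in Piezo Gel+US. Again the groups did not overlap, with a difference of 0.67 (exact two-sided permutation p = 0.1, n = 3 each, adjusted p = 0.2) and of 0.53 without Piezo Gel+US replicate 2. Over every pair of tested genes, 6.83% of ratios had groups that did not overlap. The ratios Ncan over Bcan and Chsy1 over Xylt1 overlapped, with differences of 0.16 and 0.38 (exact permutation p = 0.7 and p = 0.9, n = 3 each).

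**Figure D4:**
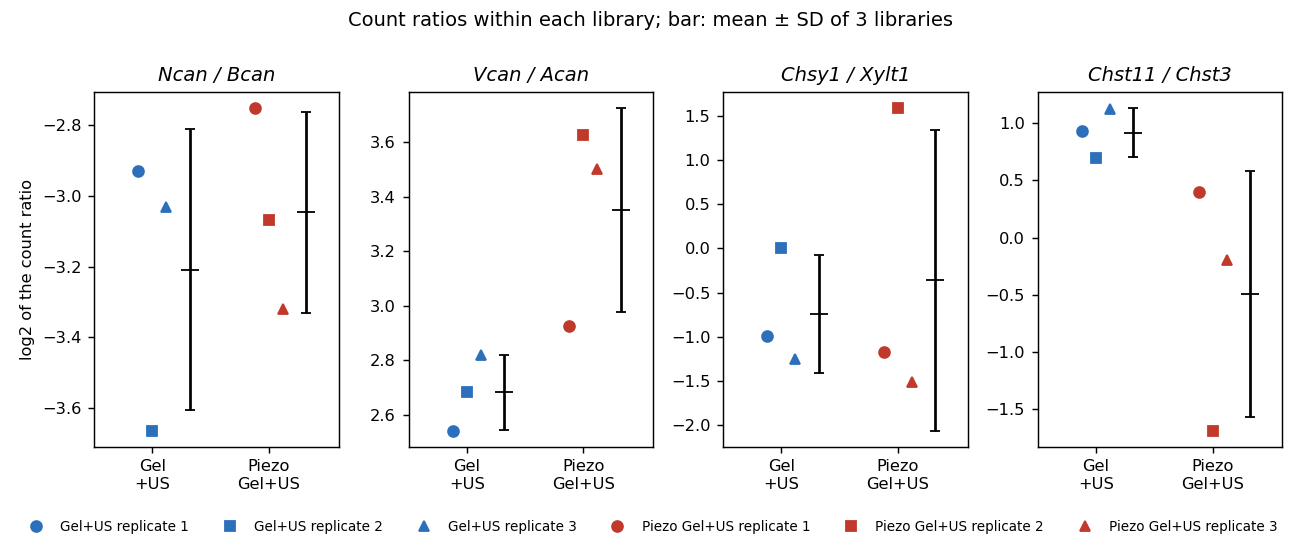
Log2 ratio of counts of 2 genes in the same library (vertical axis) for 4 ratios, Gel+US in blue and Piezo Gel+US in red, with the symbol shape giving the replicate number and the black bar the mean ± SD of 3 libraries. The groups are apart for Vcan over Acan and for Chst11 over Chst3, where the red square lies lowest at -1.69, and overlap for Ncan over Bcan and Chsy1 over Xylt1.

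The rest of the pathway, 70 further genes of which 68 were matched and 66 tested, were 35 lower and 31 higher in Piezo Gel+US (median log2 fold change -0.040). Of the 66, 0 were called, and 3 had an unadjusted edgeR p below 0.05 (4.55%, beside 2.10% of all genes), all 3 higher in Piezo Gel+US. Groups did not overlap for 5 of the 66 (7.58%, beside 6.81%). These lists were chosen with earlier results of these data known, so that the shares are a description and no test. Adamts1 and Adamts5 were not matched by symbol, and Epyc and Chst13 fell under the count filter.

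Those 3 genes were Chst3, Ptprf and Cspg4, and each was highest in Piezo Gel+US replicate 2, where Schwann cell markers were also highest. Chst3 measured 17.4, 16.6 and 16.4 CPM in Gel+US and 23.2, 34.7 and 24.7 in Piezo Gel+US, a log2 fold change of 0.71 (95% interval 0.21 to 1.21, edgeR adjusted p = 0.994). Ptprf, or LAR, a second receptor phosphatase for the chains, measured 251, 246 and 239 CPM in Gel+US and 295, 526 and 322 in Piezo Gel+US (0.63, 0.012 to 1.26). Cspg4, the NG2 proteoglycan of oligodendrocyte precursors and pericytes, measured 81.9, 87.3 and 61.5 CPM in Gel+US and 92.3, 130.2 and 105.7 in Piezo Gel+US (0.51, 0.0060 to 1.01). All 3 separated the groups, and without Piezo Gel+US replicate 2 their log2 fold changes were 0.50, 0.32 and 0.36.

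Other core proteins were 4 lower and 3 higher of 7 tested (median -0.17), and the median turned to 0.56 when Gel+US replicate 2 was left out and to 0.15 when Piezo Gel+US replicate 2 was. Dcn, the small proteoglycan of fibroblasts, had the highest level per kb and a log2 fold change of 1.06 (95% interval -0.91 to 3.04), and its relative Bgn had one of -1.48 (-3.89 to 0.92), with 808 CPM in Gel+US replicate 2 against at most 186 CPM in any other library. The 8 fibroblast markers, Dcn among them, had their highest sums in the libraries numbered 2. These were 7907 CPM in Gel+US and 6214 CPM in Piezo Gel+US, beside 802 to 1794 CPM in the other 4 libraries. The sum did not hold for every marker: Fn1 was at 278 CPM in Piezo Gel+US replicate 2, below the 340 and 472 CPM of replicates 1 and 3 of that group. Dcn is part of the sum, and the part of fibroblasts in these values was not tested. The 4 receptors, Ptprs included, were 2 lower and 2 higher (median -0.050, turning to 0.14 or 0.15 when Gel+US replicate 1 or 2 was left out, and to 0.052 when Piezo Gel+US replicate 3 was), with Rtn4rl1, a Nogo receptor relative, at -0.24. The 12 enzymes of linkage and chain building, among them Xylt1 and Chsy1, were 6 lower and 6 higher (median -0.010). Their median was -0.063 with 7 lower when Gel+US replicate 1 was left out, and -0.062 with 8 lower when Piezo Gel+US replicate 2 was. B3gat3, which completes the linkage sugars, was at -0.17, Csgalnact1, which commits the chain to chondroitin, at -0.26 with groups that did not overlap, and Chsy3 at -0.56.

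Modifying enzymes were 6 lower and 3 higher of 9 tested (median -0.29, or 0.023 with 4 lower when Gel+US replicate 2 was left out), with Chst12, a sulfotransferase related to Chst11, at -0.091. Enzymes that cleave the core proteins or break down the chains were 4 lower and 8 higher of 12 tested (median 0.088). This turned to 7 lower and a median of -0.12 when Piezo Gel+US replicate 1 was left out, and to 7 lower and -0.090 when Gel+US replicate 3 was. Ids, a lysosomal sulfatase, was at -0.13, and the proteases Adamts8 and Adamts15 at -1.24 (95% interval -2.61 to 0.14) and 0.77 (-0.68 to 2.22). Adamts8 rested on only 8 to 38 counts per library, with the 38 in Gel+US replicate 2.

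Hyaluronan synthases, link proteins, tenascins and Cd44, listed as hyaluronan and perineuronal net partners, were 6 lower and 4 higher of 10 tested (median -0.28). That median stayed below 0 with any library left out, at -0.11 when Piezo Gel+US replicate 2 was and -0.18 when Gel+US replicate 2 or 3 was. Hapln1, a link protein of perineuronal nets, measured 12.6, 10.997 and 15.1 CPM in Gel+US and 9.77, 5.88 and 12.7 in Piezo Gel+US, a log2 fold change of -0.45 (95% interval -1.21 to 0.32). Tnr, the tenascin that crosslinks lecticans, measured 83.3, 33.9 and 120 CPM in Gel+US and 82.3, 13.6 and 50.3 in Piezo Gel+US (-0.70, -2.35 to 0.95). Hapln2, a link protein of the nodes of Ranvier, was at 0.16 and Has1, a hyaluronan synthase, at -0.56. Both Hapln1 and Tnr were lowest in Piezo Gel+US replicate 2, as Acan was.

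**Figure D5:**
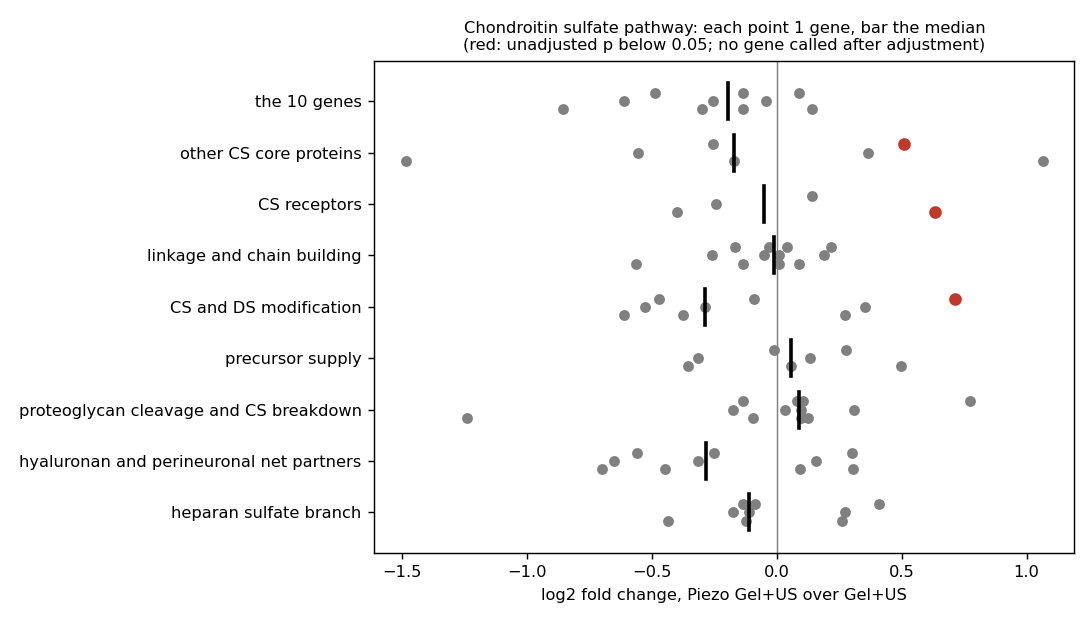
Log2 fold change of Piezo Gel+US over Gel+US (horizontal axis) of every tested gene in the set of 10 and in 8 pathway lists, 1 point a gene, with a black bar at each list's median; genes in 2 lists are drawn in both. Red points have an unadjusted edgeR p below 0.05 (Cspg4, Ptprf and Chst3), and no point passed after adjustment.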

How the data were processed

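Poly(A) RNA from lesion tissue was sequenced in 6 libraries, 3 per group. The treatment label gave the group of a library, and its library name gave its column. The table the authors deposited holds raw, unnormalised read counts by gene. The submitters' processing notes list the aligner HISAT2 (version 2.0.5), the read trimmer fastp (0.19.7), the counter featureCounts (1.5.0-p3) and DESeq2 (1.20.0) with no settings. The genome build and the strand setting of the counting are not given in the sources used here. Of the 33455 gene identifiers in the table, 0 occurred in the RefSeq gene table of the Norway rat assembly GRCr8, so the reference may be that of another rat species. Positions, strands and lengths are those of the deposited table only, and reads that differ from the reference used would be lost in both groups. None of the 10 gene models overlapped another gene of the table.

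Genes were compared with edgeR 4.0.16 (TMM factors, filterByExpr with minimum count 10 and minimum total count 15, robust quasi-likelihood F test, group as the only term), with Benjamini-Hochberg adjustment over the 17066 genes tested and a call at an adjusted p below 0.05. CPM (count divided by the TMM-scaled library size, times 1e6) is the level, and per-kilobase values divide it by the deposited gene length. Centred log2 CPM (prior count 2) is the difference from a gene's mean of 6 libraries. Ratios within a library added 0.5 to each count and were compared by exact two-sided permutation tests. Alternatives were relative log expression and upper-quartile factors, no low-count filter, DESeq2 1.42.0, limma-voom (limma 3.58.1) with quality weights, the replicate number as a block, and each library left out.

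Deviations from the group means correlated between libraries of equal replicate number at 0.25, 0.30 and 0.25 for replicates 1 to 3. Each was over 0.1, the limit used here for giving a fit with the replicate number as a block beside the main fit. An unequal pair, replicate 1 of Gel+US and replicate 3 of Piezo Gel+US, reached 0.20, so that this limit does not set equal numbers apart. The main edgeR fit, its intervals and the ratio tests treat the libraries as unpaired. The pairing is read from the data, since the labels do not say what a number shares. The 10 genes, the pathway and marker lists and the ratios were chosen with earlier results of these data known. Besides the 10 genes, the text names from each list the gene of highest CPM per kilobase and those of lowest p, up to 3, together with Chst3, Cspg4, Hapln1 and Tnr. A Schwann cell marker and a gene of similar profile that these rules would name are not reported here.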

Additional observations from a re-analysis of the deposited data

How the results depend on the processing

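By each of the 12 alternative fits 0 genes and 0 of the 10 members were called. Members at an unadjusted p below 0.05 numbered 3 with the replicate number as a block (Acan, Ptprz1 and Chst11, beside 5.78% of all genes), 2 by limma-voom (Acan and Chst11, beside 14.1%), 2 without Piezo Gel+US replicate 1 (Acan and Chst11, beside 3.83%) and 0 in the other 9. The median log2 fold change of the 10 was below 0 in all 12, -0.33 with the block and from -0.55 to -0.069 with 1 library left out. Signs that changed were those of Ptprs (-0.034), Xylt1 (0.076) and Chsy1 (-0.20) by limma-voom, and of Cspg5 (0.020) with the block. With 1 library left out the log2 fold change ranged from -0.55 to 0.087 for Bcan, -0.68 to 0.22 for Ncan, -0.32 to 0.11 for Cspg5, -0.40 to 0.26 for Xylt1 and -0.34 to 0.32 for Chsy1. The ratio difference ranged from -0.065 to 0.30 for Ncan over Bcan and from -0.60 to 0.95 for Chsy1 over Xylt1, while those of Vcan over Acan (0.53 to 0.88) and Chst11 over Chst3 (-1.86 to -0.82) kept their sign. Acan, Vcan, Ptprz1 and Chst11 were below 0 in every fit. The cause of these shifts was not tested. Which animals share a replicate number is not stated in the labels, and with 3 libraries a group the width of the intervals, not the depth of 103 or more counts per gene, limits what can be seen.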

Other observations

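Heparan sulfate chains start on the same linkage sugars as chondroitin sulfate, and Ptprs binds both. In the 9 genes tested of that branch, 6 were lower and 3 higher in Piezo Gel+US (median log2 fold change -0.11, or 0.029 with 4 lower when Gel+US replicate 2 was left out), and 0 were called by edgeR at an adjusted p below 0.05, with 0 at an unadjusted p below 0.05. Sdc3, a syndecan of neural tissue and nerve, measured 353, 279 and 329 CPM in Gel+US and 407, 475 and 393 in the piezoelectric group, so that the groups did not overlap, with a log2 fold change of 0.41 (95% interval -0.055 to 0.87). Gpc1, a glypican of neurons, had a log2 fold change of -0.43 (95% interval -1.12 to 0.25) and Ndst2, a sulfotransferase of heparan sulfate, of 0.27 (-0.30 to 0.84).

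The genes that supply sugar and sulfate to the chains were 3 lower and 4 higher of 7 tested (median 0.058). Leaving out Gel+US replicate 3 gave 4 lower and a median of -0.076, and leaving out Piezo Gel+US replicate 2 gave 5 lower and -0.012. Papss1, which makes the sulfate donor, measured 132, 141 and 164 CPM in Gel+US and 169, 304 and 144 in Piezo Gel+US. Its log2 fold change was 0.50 (95% interval -0.24 to 1.23), and its relative Papss2 had a log2 fold change of -0.35 (-1.06 to 0.35). Ugdh, which makes the glucuronic acid donor, had one of 0.28 (-0.30 to 0.85).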
